A study of Mus musculus with 35 samples.

Results

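Genes characteristic of atrial muscle or of the natriuretic response, namely Nppa, Nppb, Bmp10, Sln, Myl4 and Myl7, were examined in mouse hearts by RNA-Seq. They are 6 of the 55487 genes in the heart table and were picked by name with the IAMP-KO comparison of these hearts already known, in which Bmp10 had stood out, so their differences between genotypes are given below as a description without a test. The hearts came from 8 mice, 4 labelled heterozygous for the IAMP mutation (HET, the controls) and 4 homozygous (IAMP-KO), all C57BL/6, 8 weeks old and studied under basal conditions. IAMP is a micropeptide encoded by 4930523C07Rik, and the KO allele is a constitutive frameshift made with Cas9 and 1 guide RNA, so every cell type of the heart carried it and the controls carried 1 copy of it. The labels give the tissue as heart, and which part of the heart was taken is not given in the sources used here. Hearts are called A to D within each genotype, and the letters do not pair HET with KO hearts. Total counts ran from 23497027 to 23857313 per heart, and levels are given as CPM, counts scaled to a common library total after TMM normalization.

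Nppa and Nppb encode the prohormones of atrial and B-type natriuretic peptide, which lower blood volume and pressure through the guanylyl cyclase receptor NPR1. In the adult heart Nppa is made mainly by atrial myocytes, and both genes rise in stretched or overloaded ventricles. Bmp10 encodes a circulating ligand of the endothelial receptor ALK1 that is made chiefly in the right atrium, Sln encodes sarcolipin, the atrial inhibitor of the SERCA calcium pump, and Myl4 and Myl7 encode the essential and regulatory myosin light chains of atrial muscle.

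On GRCm38 (GENCODE vM21), Nppb (ENSMUSG00000029019) lies at chr4:147985788-147987205 and Nppa (ENSMUSG00000041616) at chr4:148000722-148002079, both on the plus strand and 13516 bases apart. Bmp10 (ENSMUSG00000030046) lies at chr6:87428994-87437677 and Sln (ENSMUSG00000042045) at chr9:53850164-53854560, both on the plus strand. Myl7 (ENSMUSG00000020469) lies at chr11:5896637-5898782 on the minus strand and Myl4 (ENSMUSG00000061086) at chr11:104550663-104595753 on the plus strand. No other annotated gene overlaps Nppb, Bmp10, Sln or Myl7. Gm13054, on the opposite strand of Nppa, had 4 to 32 counts per heart, and the 4 antisense genes within Myl4 had at most 12, against 2482 to 7178 counts of Nppa and 690 to 2661 of Myl4.

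The start regions of 5 members, 250 bases before to 50 bases after the start that RefSeq gives, were available from RefSeq (GRCm38.p6), and 4 of them are shown because their genes behave differently in the hearts described below. Capitals mark matches on either strand to 7 motifs, with no overlap between different motifs in these windows. The motifs of GATA factors were searched as AGATAA and, as a variant with a T in front, TGATAA. For T-box factors the letters were GGTGTGA, for NKX2-5 they were TNAAGTG and for TEAD factors CATTCC. The TATA box was searched as TATAAA, and the SRF motif is the CArG box. The RefSeq start equals the GENCODE start in Nppa, Bmp10, Myl7 and Myl4, whereas in Nppb it is base 147985900, which lies 112 bases downstream of the GENCODE start, inside the gene as GENCODE draws it. All are printed 5′ to 3′ on the strand of the gene.
Nppa, chr4:148000472-148000771, plus strand: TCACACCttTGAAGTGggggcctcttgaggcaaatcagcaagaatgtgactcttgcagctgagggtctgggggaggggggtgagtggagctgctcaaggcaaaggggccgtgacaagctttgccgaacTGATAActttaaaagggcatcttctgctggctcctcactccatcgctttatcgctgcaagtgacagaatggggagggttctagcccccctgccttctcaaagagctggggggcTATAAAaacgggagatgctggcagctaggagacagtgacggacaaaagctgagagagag
Nppb, chr4:147985650-147985949, plus strand: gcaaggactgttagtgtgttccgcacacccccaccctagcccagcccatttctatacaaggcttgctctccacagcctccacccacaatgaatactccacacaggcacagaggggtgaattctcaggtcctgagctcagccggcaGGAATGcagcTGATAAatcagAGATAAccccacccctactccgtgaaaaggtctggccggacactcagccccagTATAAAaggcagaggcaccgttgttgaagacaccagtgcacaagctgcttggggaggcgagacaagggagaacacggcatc
Bmp10, chr6:87428744-87429043, plus strand: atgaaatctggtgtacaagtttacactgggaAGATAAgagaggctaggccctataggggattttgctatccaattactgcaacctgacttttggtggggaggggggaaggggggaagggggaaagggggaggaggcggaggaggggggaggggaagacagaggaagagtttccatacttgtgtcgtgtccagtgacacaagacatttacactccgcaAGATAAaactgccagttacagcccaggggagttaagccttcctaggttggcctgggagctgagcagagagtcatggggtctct
Myl7, chr11:5898733-5899032, minus strand: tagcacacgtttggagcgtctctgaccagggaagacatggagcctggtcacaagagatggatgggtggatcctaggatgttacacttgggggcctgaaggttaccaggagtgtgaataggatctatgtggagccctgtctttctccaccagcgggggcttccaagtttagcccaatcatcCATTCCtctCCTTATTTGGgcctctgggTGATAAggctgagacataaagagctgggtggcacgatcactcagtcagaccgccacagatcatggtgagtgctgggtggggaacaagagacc

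The Nppa window held the T-box motif on the opposite strand and the NKX2-5 motif next to each other at its far end, 250 and 241 bases before the start, then the GATA variant at 122 and the TATA box at 9 bases. Nppb held both GATA motifs within 95 bases before the RefSeq start, the TEAD motif on the opposite strand at 105 and the TATA box at 31, and all of these matches lie downstream of its GENCODE start. Bmp10 held the first GATA motif at 219 and at 33 bases before the start and none of the other motifs. Myl7 held the TEAD motif, the CArG box and the GATA variant at 70, 61 and 42 bases before the start, and Myl4, the fifth window, held none. Of all 32851 windows, 11.2% held the first GATA motif, 9.05% its variant, 3.98% the T-box, 11.5% the NKX2-5, 14.7% the TEAD, 13.6% the TATA and 1.63% the CArG motif. These matches describe letters only, and binding was not measured.

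The IAMP gene itself was read in both genotypes at levels that overlapped. 4930523C07Rik (chr1:160044382-160080208, plus strand) had 17.0 ± 1.25 CPM in HET and 16.1 ± 0.977 in KO hearts (SD, n = 4 each), with a log2 fold change of −0.09 (SE 0.07). A frameshift need not remove the transcript, so these counts do not check the genotype labels. All 8 hearts had the Y-linked Ddx3y at 31.9 to 40.7 CPM and Xist at no more than 0.641 CPM, so sex did not separate the groups.

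The atrial light chains varied about 4-fold among single hearts, and the hearts of both genotypes lay along the same range. Myl7 had 30.1, 27.5, 107 and 72.2 CPM in HET-A to HET-D and 48.9, 25.4, 52.1 and 68.2 CPM in KO-A to KO-D. HET-C was highest and KO-B lowest, and 3 of the 4 KO values fell within the HET range. Its group means were 59.2 ± 37.8 CPM in HET and 48.7 ± 17.7 in KO hearts (SD, n = 4 each), with a log2 fold change of −0.28 (SE 0.54). Myl4 had 33.2, 31.1, 113 and 83.7 CPM in HET-A to HET-D and 55.9, 29.1, 57.9 and 66.7 CPM in KO-A to KO-D, which put the 8 hearts in the same order as Myl7. Its group means were 65.2 ± 40.0 CPM in HET and 52.4 ± 16.2 in KO hearts (SD, n = 4 each), with a log2 fold change of −0.32 (SE 0.51). The ratio of Myl4 to Myl7 counts stayed between 0.978 and 1.16 in all hearts.

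Sarcolipin followed the light chains. Sln had 8.79, 10.1, 43.1 and 23.5 CPM in HET-A to HET-D and 19.6, 9.29, 21.3 and 23.8 CPM in KO-A to KO-D. HET-A, HET-B and KO-B were again the 3 lowest hearts and HET-C the highest, and all 4 KO values lay within the HET range. The means were 21.4 ± 16.0 CPM in HET and 18.5 ± 6.38 in KO hearts (SD, n = 4 each), with a log2 fold change of −0.21 (SE 0.58). Without HET-C the differences turned to positive values, of 0.17 for Myl7, 0.09 for Myl4 and 0.39 for Sln (log2), and without KO-B that of Sln was 0.01. Without HET-B they were −0.52, −0.55 and −0.44. The direction of these 3 differences thus rested on single hearts.

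Nppa was also highest in HET-C. It had 104, 118, 305 and 167 CPM in HET-A to HET-D and 111, 105, 122 and 141 CPM in KO-A to KO-D. All 4 KO hearts lay within the HET range, and HET-C and HET-D were above every KO heart. The means were 173 ± 91.6 CPM in HET and 120 ± 15.9 in KO hearts (SD, n = 4 each), with a log2 fold change of −0.53 (SE 0.35). It was −0.11 without HET-C and −0.71 without HET-A.

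Nppb, the neighbour of Nppa, had a pattern of its own. It had 56.0, 72.6, 62.6 and 78.2 CPM in HET-A to HET-D and 45.1, 54.3, 26.9 and 78.6 CPM in KO-A to KO-D. KO-C was lowest and KO-D highest, so the KO hearts lay on both sides of the HET hearts and none fell between the lowest and highest HET value. The means were 67.4 ± 9.94 CPM in HET and 51.2 ± 21.5 in KO hearts (SD, n = 4 each), with a log2 fold change of −0.40 (SE 0.31). It was −0.18 without KO-C and −0.68 without KO-D. HET-C, with the most Nppa, had an Nppb to Nppa count ratio of 0.206, and HET-B, with 118 CPM of Nppa, had 0.618.

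**Figure D1:**
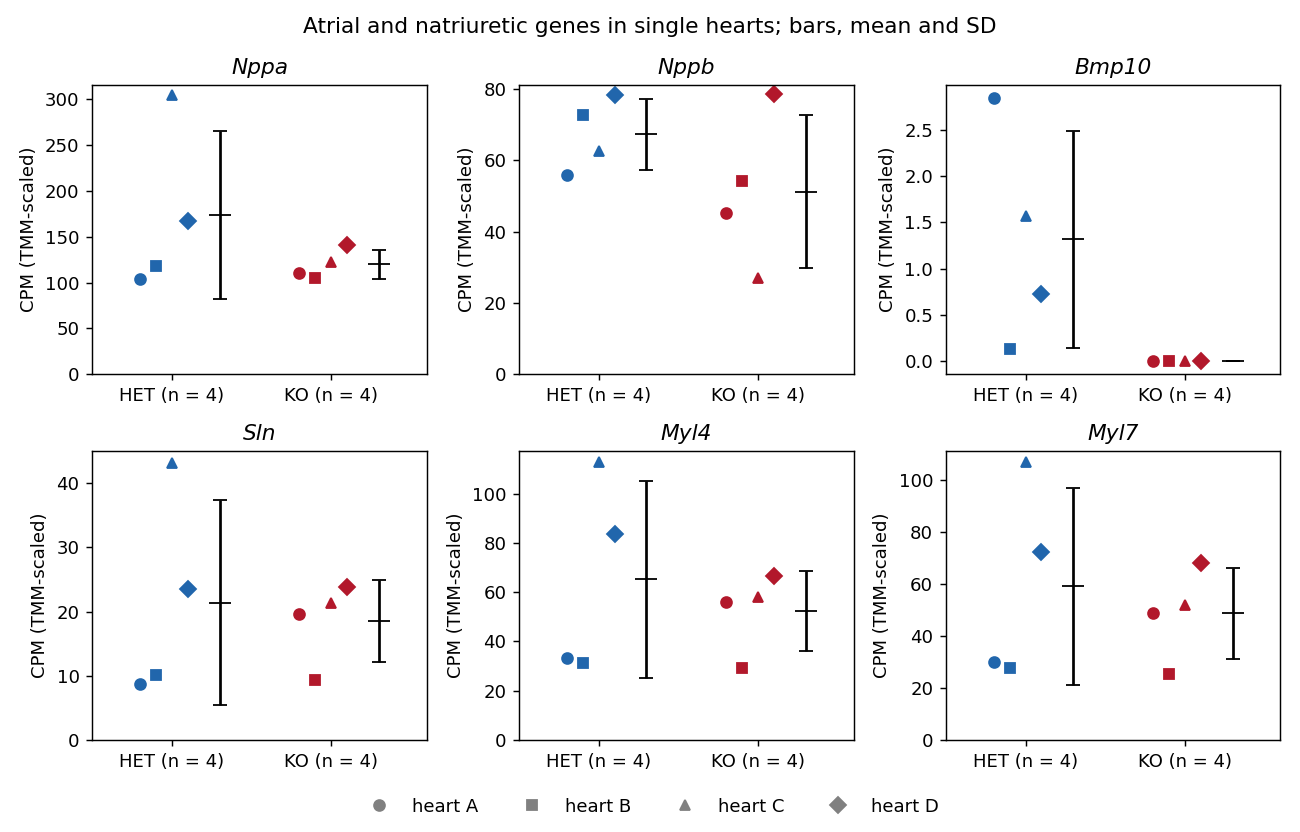
TMM-scaled CPM (y axis) of each of the 6 genes in single HET (blue) and KO (red) hearts, with the mean and SD (n = 4) beside the points. HET-C is the highest triangle for Nppa, Sln, Myl4 and Myl7, whereas Bmp10 was at 0 in all 4 KO hearts.

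Corrected for transcript length, Nppa was the most abundant of the 6 genes, at 169 ± 77.8 CPM per kb of merged exons over the 8 hearts (SD). Myl7 followed with 91.4 ± 47.3 and Nppb with 75.9 ± 22.7 CPM per kb, and this order held in 5 of 8 hearts, so the pair did not differ beyond the spread between hearts. Sln had 15.1 ± 8.61 and Myl4 12.7 ± 6.27 CPM per kb, an order that held in 6 of 8 hearts. The Myl4 level is a low estimate, since its 8 annotated transcripts merge to 4637 bases. Bmp10 was last at 0.147 ± 0.233 CPM per kb. For comparison, Myl2, the ventricular regulatory light chain, had 2581 CPM per kb, 28.2 times Myl7.

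The question before any reading by genotype was whether these genes rose and fell together in single hearts. Over the 8 hearts, r of log2(CPM + 0.1) was 0.995 for Myl7 and Myl4, with a Spearman rho of 1.00. It was 0.98 for Myl7 and Sln and 0.98 for Myl4 and Sln (rho 0.90 for both). Nppa had an r of 0.85 with Myl7, 0.84 with Myl4 and 0.83 with Sln (rho 0.88, 0.88 and 0.95). All 6 pairs among Myl7, Myl4, Sln and Nppa passed an exact two-sided permutation test over the pairings of hearts, with p from 2.48e-05 (the smallest that 8 hearts can give) to 0.00191 for r and Benjamini-Hochberg adjusted p over 15 pairs from 0.000372 to 0.00477, and for rho the adjusted p ran from 0.000744 to 0.0181. Within genotypes, from deviations about each genotype mean, r was 0.995 between the light chains, 0.99 for each with Sln, and 0.88 to 0.92 for Nppa, with exact p of 0.00174 to 0.00521 when hearts were permuted within genotype.

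The relations were recomputed without the extreme hearts. Without the 2 hearts farthest from the median of the first gene of the pair, r was 0.99 for Myl7 and Myl4 (exact permutation p = 0.00139) and 0.96 for Myl7 and Sln and for Myl4 and Sln (p = 0.00833 for each). For Nppa it was 0.79 with Myl7, 0.80 with Myl4 and 0.81 with Sln, with exact permutation p of 0.0639, 0.0667 and 0.0847. These r were close to the 0.85, 0.84 and 0.83 over 8 hearts but did not pass the test with 6 hearts. The hearts left out were HET-C and KO-B for the pairs led by Myl7 or Myl4. For Sln with Nppa they were HET-A and KO-B, so HET-C, the highest heart for both genes, stayed in. Without HET-C alone, r of Sln and Nppa was 0.74 (exact permutation p = 0.0565, adjusted p = 0.141). The count ratio of Nppa to Myl7 was highest, at 3.46 to 4.27, in the 3 hearts with the least Myl7 and ran from 2.07 to 2.85 in the other 5.

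No relation of Nppb with the other members passed the test. Its r was 0.12 with Myl7, 0.10 with Myl4, 0.01 with Sln and 0.29 with Nppa, and the exact permutation p ran from 0.432 to 0.985. For Bmp10, whose hearts fell into a group with and a group without counts, no pooled correlation is given, although its 5 pairs were among the 15 computed. In the HET hearts alone, the order of Bmp10 (A, C, D, B from high to low) differed from that of Myl7 (C, D, A, B).

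**Figure D2:**
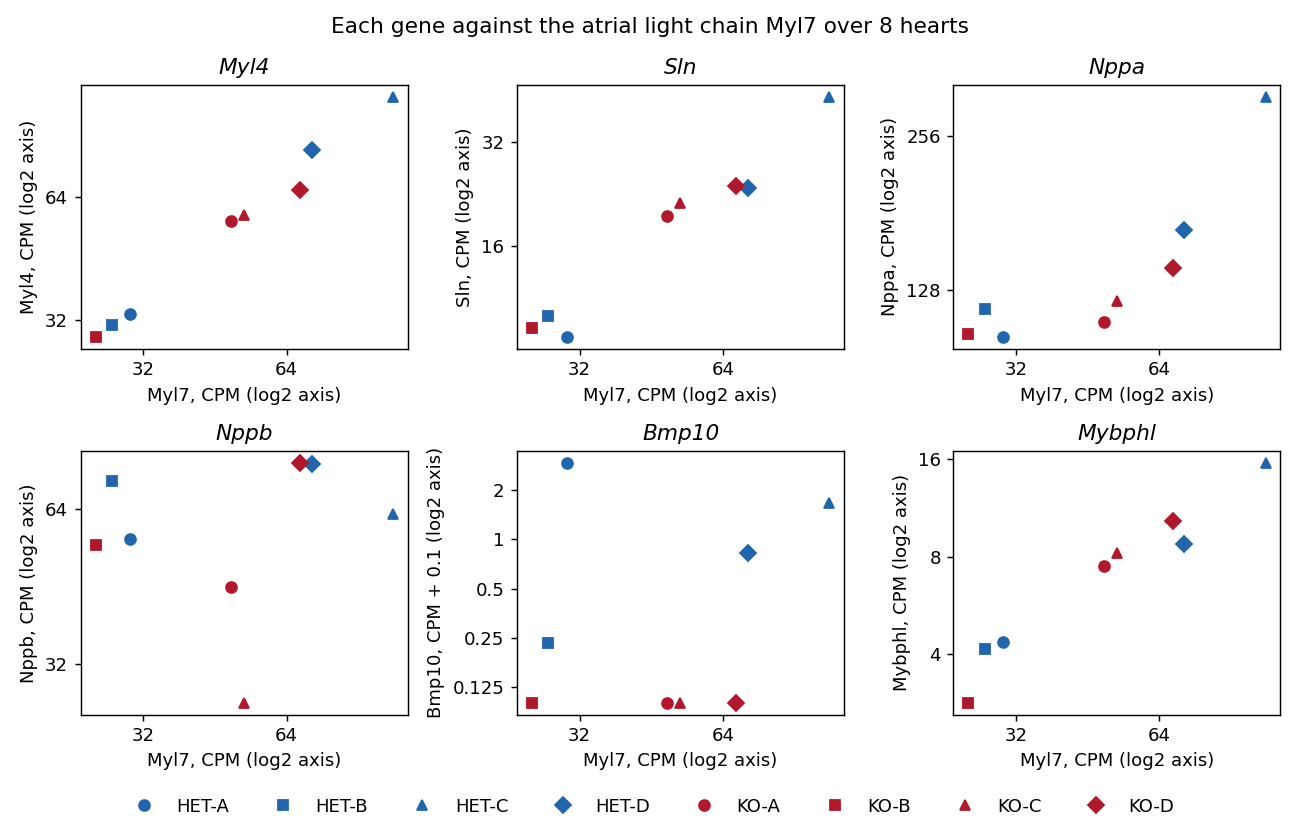
Level of each gene (y axis, CPM, log2 axis, with 0.1 added for Bmp10) against Myl7 (x axis, CPM, log2 axis) in the 8 hearts, blue for HET and red for KO. Myl4, Sln, Nppa and Mybphl rise with Myl7 in both genotypes, whereas Nppb does not follow Myl7 and Bmp10 was at 0 in all 4 KO hearts.

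Other atrial genes, none of them among the 6, were followed in the same hearts. Their list, like the members, was chosen with earlier results of these data known, so it is not an independent check. The list held 20 genes described as enriched in atria, of which 19 passed the filter on low counts. The mean log2 level of these 19 genes had an r of 0.87 with Myl7, 0.87 with Myl4 and 0.88 with Sln (exact permutation p = 0.00712, 0.00751 and 0.00818, adjusted p = 0.0327 for each over 12 relations), and 0.61 with Nppa (p = 0.0972). For Nppb r was −0.35 (exact permutation p = 0.412), and 0.14 without KO-C. For rho, from 0.74 to 0.83 with Myl7, Myl4 and Sln, no adjusted p was below 0.0923. The relations of Myl7, Myl4 and Sln by r also missed the threshold within genotypes, where r was 0.89 to 0.91 with adjusted p of 0.0938 to 0.0972 by the exact permutation test. They missed it too when any heart but KO-C was left out and with scaling by library size alone (adjusted p of 0.0546 by exact permutation). The mean of 10 ventricle-enriched genes had an r of −0.18 to −0.06 with Myl7, Myl4, Sln and Nppa and of −0.38 with Nppb. None passed the test (exact permutation p of 0.356 to 0.908). These values depended on single hearts. Without KO-B r with the ventricular mean was −0.56 for Myl7, −0.61 for Myl4, −0.45 for Sln and −0.47 for Nppa (exact permutation p of 0.146 to 0.336), and without HET-D it was 0.16, 0.16, 0.12 and −0.05 (exact permutation p of 0.747 to 0.859). Over the 4 HET hearts alone the sign was negative and over the 4 KO hearts alone positive for each of the 4 genes, which are too few hearts for a test, and the difference between genotypes was not tested.

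Within the atrial list the relation came from a few genes. Mybphl, an atrial relative of myosin-binding protein C, had 4.35, 4.14, 15.6 and 8.78 CPM in HET-A to HET-D and 7.48, 2.83, 8.18 and 10.3 CPM in KO-A to KO-D, with an r of 0.98 with Myl7. Dkk3, a secreted glycoprotein abundant in atria, had 9.80, 8.01, 25.2 and 23.7 CPM in HET-A to HET-D and 15.7, 8.36, 18.0 and 19.8 CPM in KO-A to KO-D, with an r of 0.98. In both, HET-A, HET-B and KO-B were the 3 lowest hearts and HET-C the highest. Pam, the peptide-amidating enzyme of atrial granules and the most abundant gene of the list, spanned only 351 to 448 CPM and had an r of 0.88. In all, 5 of the 19 genes had an r of at least 0.7 with Myl7, the others being Stard10 and Hamp. An r this high was also reached by 2 of 6 smooth muscle markers and 2 of 17 cardiac transcription factors. It was reached by 1 of 14 myosin genes and kinases, 1 of 7 nodal cell, 1 of 3 adipocyte and 1 of 4 sex-linked markers. Of the 6 fibroblast markers 0 reached it, but their highest r, 0.69 for Dcn, lay just below. The share over all genes at 0.7 is not given, so nothing is read from the count for the atrial list. The potassium channel subunits Kcnj3 and Kcnj5 (r = −0.16 and 0.04), the muscarinic receptor Chrm2 (−0.17), the connexin Gja5 (−0.31) and the transcription factor Hey1 (−0.45) did not follow. Of the 10 ventricular genes, 0 had an r of 0.7 or more, and they ran from −0.73 for Kcnip2, a subunit of a potassium channel, to 0.26 for Fhl2. Their median was 0.01, against 0.28 for the atrial list, 0.61 for fibroblast markers and 0.54 for smooth muscle markers. Following Myl7 was thus not particular to atrial genes. Myl2 stayed between 4592 and 5416 CPM.

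**Figure D3:**
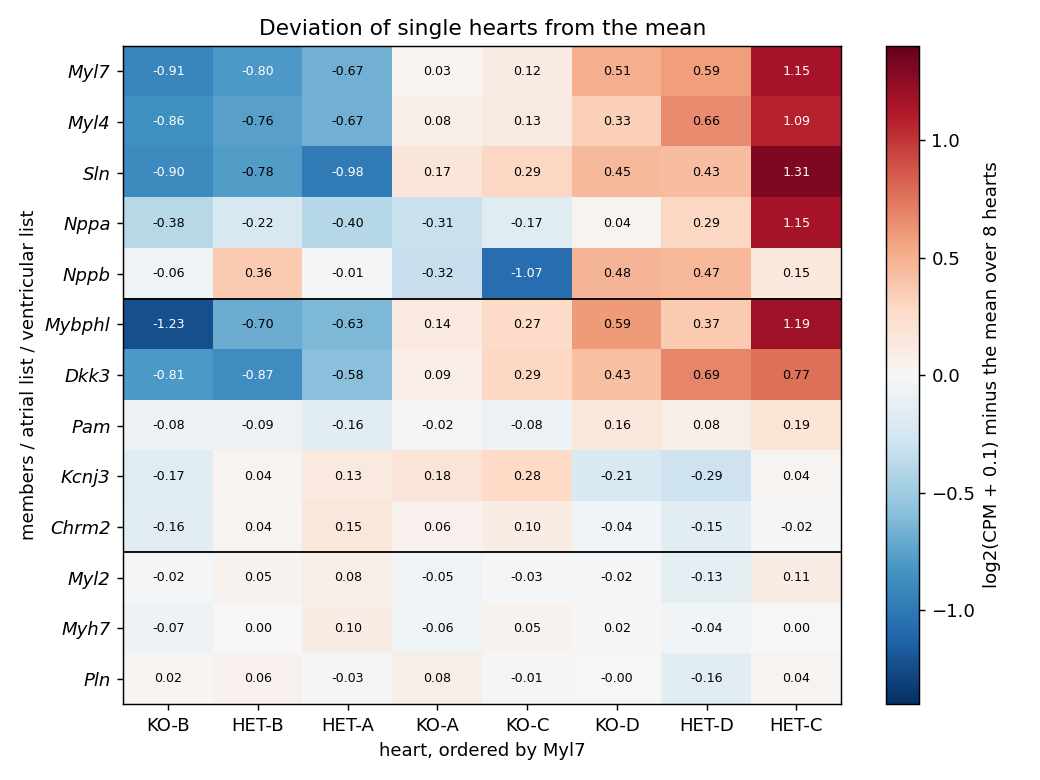
Deviation of log2(CPM + 0.1) from the mean over 8 hearts, by gene (rows) and heart (columns, ordered by Myl7), for 5 members (top), 5 atrial-list genes (middle) and 3 ventricle-list genes (bottom), the list genes being picked after their values were seen. Mybphl and Dkk3 deviate with Myl7, Myl4 and Sln by up to 1.31, whereas the ventricular genes stay within 0.16.

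Among 14441 other genes averaging 1 CPM or more, 15 had an r of at least 0.9 with Myl7, 16 with Myl4 and 16 with Sln, that is 0.104% to 0.111%, and 2 genes of the atrial list, Mybphl and Dkk3, were among them each time. The 3 genes most alike to Myl7 were Cilp2 (r = 0.98), Mybphl and Dkk3. For Myl4 they were Dkk3, Ppp1r1b and Cilp2 (r = 0.98, 0.97 and 0.97), and for Sln they were Tmem163, Mybphl and Peg3 (r = 0.98, 0.97 and 0.97). For Nppa they were Hsp90b1 and Ppib, both chaperones of the endoplasmic reticulum where secreted proteins fold, and Cilp2 (r = 0.94, 0.93 and 0.93). Hsp90b1 ran from 150 CPM in KO-B to 171 CPM in HET-C, a far narrower range than that of Nppa. For Nppb, Gm5855, Kctd1 and Gm18169 came first (r = 0.97, 0.96 and 0.96), and 0 of its 47 genes at an r of at least 0.9 were on the atrial list. For Bmp10, whose values split by genotype, no likeness over the 8 hearts is given. These likenesses are descriptions over 8 hearts, and an r near 1 is to be read against the number of genes searched.

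The 5 members other than Bmp10 were among the more variable genes of these hearts. The SD of log2(CPM + 0.1) over 8 hearts was 0.74 for Myl7, 0.71 for Myl4, 0.81 for Sln, 0.52 for Nppa and 0.51 for Nppb, against a median of 0.13 over the 14446 genes of at least 1 CPM, which placed Nppb lowest, at percentile 97.5 of them, and Sln highest, at percentile 98.8. In these bulk samples, fewer atrial cells and less RNA per atrial cell cannot be told apart, and the share of atrial tissue in each sample was not tested.

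Bmp10, the right atrial ligand, was the 1 member whose groups did not overlap. It had 68, 3, 37 and 18 counts in HET-A to HET-D and 0 in each of the 4 KO hearts. In CPM these were 2.85, 0.131, 1.57 and 0.721 in the HET hearts, with a mean of 1.32 ± 1.18 CPM (SD, n = 4), so the HET hearts themselves spread 21.8-fold. Set against the limit that a count of 0 allows, 3 counts per heart or 0.127 CPM, Bmp10 was at least 10.3-fold lower in KO hearts, and at least 6.33-fold lower without HET-A. HET-B, at 3 counts, stood at that limit itself. Of 29699 genes with a count in any heart, 2 (0.00673%) had 0 counts in every KO heart and at least 3 in every HET heart, Bmp10 and C030010L15Rik (3 or 4 counts per HET heart), and 5 (0.0168%) had the reverse. Bmp10 was chosen with this difference known, so nothing is read from that share. It did not pass the filter on low counts and has no fold change in the main edgeR fit. Without that filter Bmp10 was among the genes tested and edgeR called 0 genes lower in KO hearts. Nothing is read from this for Bmp10 either.

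Bmp10 counts were set beside those of Myl7, which is made in both atria, so the share of right atrium in each sample was not tested by it. KO-B had the fewest Myl7 counts, 602, and 0 of Bmp10. KO-D had 1582 Myl7 counts and 0 Bmp10 counts, whereas HET-A had 718 Myl7 counts and 68 of Bmp10. Per 1000 Myl7 counts, the HET hearts had 94.7, 4.75, 14.7 and 9.99 Bmp10 counts, and a count of 0 allowed up to 2.67, 4.98, 2.37 and 1.90 in KO-A to KO-D. The limits of KO-A, KO-C and KO-D lay below the ratios of all HET hearts, but the ratio of HET-B rests on 3 counts, the limit itself. In KO-B a ratio as low as that of HET-B would not have been detectable at this depth. Bmp10 was chosen with its 0 counts in KO hearts known, so nothing is read from these ratios.

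Across all genes, the edgeR quasi-likelihood fit, adjusted by Benjamini-Hochberg, called 0 of 16675 genes higher and 0 lower in KO hearts at an adjusted p of 0.05 (0% each way). At an unadjusted p under 0.05 there were 324 higher and 277 lower genes, and DESeq2 called 3 higher and 2 lower. Bmp10 is 1 of those 2, in the contrast that had led to its choice, so nothing is read from that call. In 1.18% of the genes tested all KO values lay below all HET values, and in 1.19% all lay above. The 5 members in the fit had groups that overlapped.

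The genes through which natriuretic peptides are made and act had no called difference. Of 16 such genes 13 were tested and 0 were called, with a median log2 fold change of 0.05 against 0.00 over all genes tested. Corin, the protease that activates pro-ANP, had 186 ± 12.4 CPM in HET and 196 ± 8.88 in KO hearts (SD, n = 4 each). Furin, which cleaves pro-BNP and was the most abundant gene of the list, had a log2 fold change of 0.14 (SE 0.08). The receptor Npr1 had 28.4 ± 3.08 CPM in HET and 28.6 ± 2.12 in KO hearts, and the clearance receptor Npr3 had the largest log2 fold change, 0.21 (SE 0.10). Pde3a, a cyclic nucleotide phosphodiesterase, was the 1 list gene with an unadjusted p under 0.05 in edgeR's test (0.023, adjusted p of 1.00).

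The lowest value of that list, −0.25 (SE 1.46) for the phosphodiesterase Pde2a, moved with the row of an overlapping gene. Pde2a had 1818, 15, 1373 and 1461 counts in HET-A to HET-D and 39, 32, 1881 and 1917 counts in KO-A to KO-D. Gm45837, whose gene overlaps Pde2a on the same strand (chr7:101410886-101512819), had 340, 1681, 172 and 554 counts in HET-A to HET-D and 1711, 1936, 36 and 23 counts in KO-A to KO-D. Their sum was 1545 to 2158 counts in every heart. No member has such a neighbour on its strand.

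The receptors and targets of BMP10 had none. Of 15 genes of the BMP9 and BMP10 pathway 14 were tested and 0 were called, with 0 at an unadjusted p under 0.05 and a median log2 fold change of 0.01. Acvrl1, which encodes ALK1, had 28.9 ± 4.05 CPM in HET and 28.9 ± 1.39 in KO hearts (SD, n = 4 each), and Eng, the co-receptor endoglin and the most abundant gene of the list, had 254 ± 26.1 and 256 ± 8.99 CPM. The target Id1 had the largest log2 fold change, 0.13 (SE 0.10), and the signal transducer Smad5 the smallest, −0.19 (SE 0.22), where KO-D had 10.7 CPM and the other KO hearts 22.3 to 23.5. Gdf2, which encodes BMP9, had at most 0.174 CPM in any heart.

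Sarcolipin's partners had no called difference either. Of 11 SERCA genes and regulators in the table, all tested, 0 were called and 0 had an unadjusted p under 0.05, with a median log2 fold change of 0.01. Atp2a2, the cardiac SERCA pump and the most abundant gene of the list, had 8948 ± 285 CPM in HET and 9023 ± 289 in KO hearts (SD, n = 4 each), and the inhibitor Pln had 3809 ± 256 and 3919 ± 113 CPM. The extremes, Mrln (−0.50, SE 0.84) and Strit1 (0.30, SE 1.14), were micropeptide genes with no more than 1.42 CPM in any heart. Of 14 myosin genes and kinases 0 were called and 0 had an unadjusted p under 0.05, with a median of −0.04, from −0.11 (SE 0.11) for Myl1 to 0.28 (SE 0.38) for Mylpf, and Myh6, the alpha heavy chain, had 16776 ± 718 CPM in HET and 15990 ± 562 in KO hearts.

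The atrial list without the members had 0 of 19 genes called and 0 at an unadjusted p under 0.05, with a median log2 fold change of −0.02, and Mybphl was lowest at −0.19 (SE 0.55). The ventricular list had 0 of 10 called and a median of −0.05, with Hey2 (0.31, SE 0.10) and Kcnj2 (0.19, SE 0.08) at unadjusted p of 0.00899 and 0.032 in edgeR's test and Irx4 lowest (−0.15, SE 0.09). Of 8 cardiac stress genes 0 were called and 0 had an unadjusted p under 0.05, with a median of −0.04, from −0.25 (SE 0.28) for Rcan1 to 0.73 (SE 1.02) for Tnni1, which had at most 0.652 CPM. Myh7, the beta heavy chain and the most abundant of them, had −0.03 (SE 0.05). The stress genes Acta1 and Ankrd1 were lowest in KO-C, at 304 and 269 CPM, the heart that was also lowest in Nppb, an observation made after their values were seen. Of the other stress genes, Xirp2, Rcan1 and Uchl1 were also lowest in KO-C, whereas Myh7, Tnni1 and Ccn2 were not. Of 17 cardiac transcription factors tested 0 were called, with a median of 0.02 and Hand2 (0.42, SE 0.13) and Hey2 at unadjusted p of 0.013 and 0.00899 in edgeR's test. Mef2d, the most abundant, had 0.04 (SE 0.05). Tead1 had the lowest value of that list, −0.32 (SE 0.76), since KO-C had 7.85 CPM and the other KO hearts 155 to 163 CPM. DESeq2 called 0 of the 192 genes on the pathway and marker lists.

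**Figure D4:**
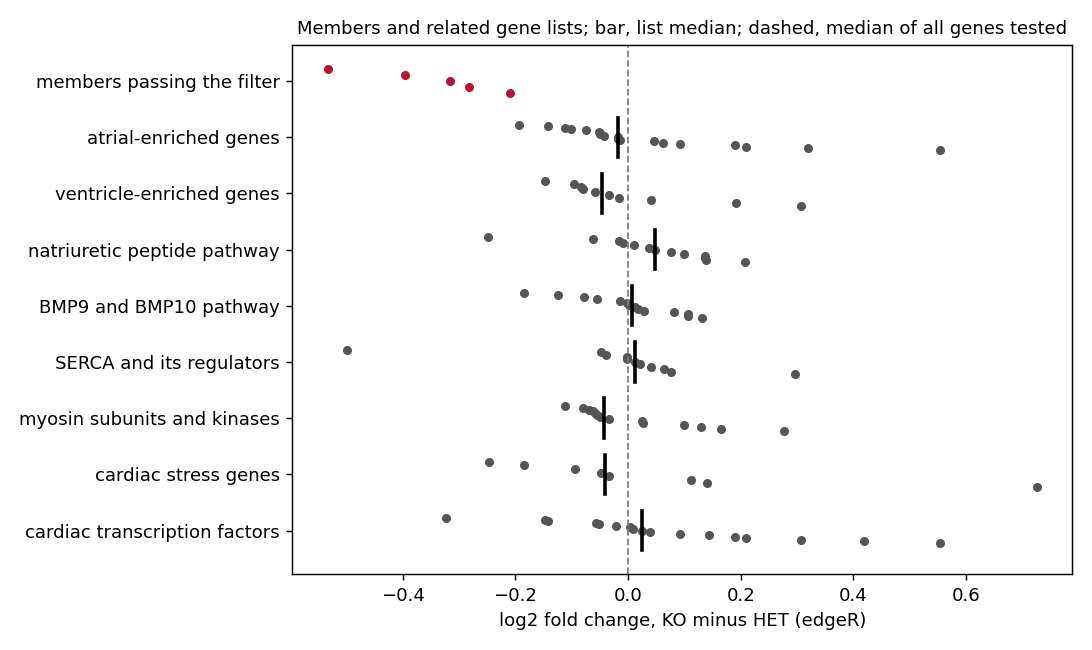
Log2 fold change (x axis, KO minus HET, edgeR) of the 5 members that passed the filter on low counts (red) and of the tested genes of 8 fixed lists (grey), with each list's median as a bar and the median of all genes tested as a dashed line. List medians lie between −0.05 and 0.05, and the members between −0.53 and −0.21 with standard errors of 0.31 to 0.58.

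Markers of other cells were read in the same hearts, and their part in the values above was not tested. In edgeR's quasi-likelihood test of KO against HET, 0 marker genes were called and 2 had an unadjusted p under 0.05. Adipoq, a hormone of adipocytes, had 0.0837 to 0.467 CPM in HET and 0.370 to 0.869 CPM in KO hearts (log2 fold change 1.53, SE 0.47, unadjusted p = 0.00821, adjusted p = 1.00), and all 3 adipocyte markers tested had a positive value. Ighm, the heavy chain of immunoglobulin M, had −0.47 (SE 0.14, unadjusted p = 0.00822, adjusted p = 1.00 in edgeR's test). All 6 lung epithelium markers also had a positive value, with a median log2 fold change of 0.30. All 8 cardiomyocyte markers were high, with a summed level of 41378 to 45683 CPM, and their r with Myl7 had a median of −0.28, from −0.64 for Ryr2 to 0.09 for Actc1. The 7 tested nodal cell markers summed with Isl1 to 78.8 to 94.1 CPM and included Cacna2d2 (r = 0.82 with Myl7), whereas Isl1 was at no more than 0.130 CPM. The 6 fibroblast markers summed to 1285 to 2017 CPM, lowest in HET-B and highest in HET-D, led by Gsn, and the 6 smooth muscle markers to 313 to 460 CPM with the same extremes, led by Smtn, with a median r with Myl7 of 0.61 and 0.54. Endothelial markers (606 to 708 CPM, led by Cdh5), macrophage markers (146 to 179 CPM, led by Lyz2) and red cell markers (663 to 974 CPM, led by Hba-a1) had a median r of −0.07, 0.22 and −0.49. Lung epithelium markers, led by Scgb1a1, ranged from 6.86 CPM in KO-D to 181 CPM in KO-C, and its 6 genes had a median r with Myl7 of −0.25, from −0.37 to −0.10. Epicardial and mesothelial markers summed to 7.42 to 18.2 CPM, led by Wt1, with a median r of −0.12. The other 5 lists (T cell and thymus, B cell, adipocyte, skeletal muscle, Schwann cell and neuron) summed to at most 12.1 CPM, and Rag1, Dntt, Ucp1, Myh4, Myh1 and Th had no count in any heart.

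In cultured cardiac fibroblasts, a cell type without atrial muscle, 27 libraries of the same series gave the background of these genes, as estimated counts scaled to CPM, in tables made separately from that of the hearts. The cells had a control siRNA or either of the siRNAs siR-1 and siR-2 against IAMP (9 libraries each), alone or with IL-17 or TGF-β. Sln, Bmp10, Nppa and Myl7 were at or near 0, with at most 0.0576, 0.185, 0.252 and 0.413 CPM. Values of at most 18 estimated counts, worth about 3 read pairs, were taken as the limit, and 0 of 27 libraries exceeded it for Sln, 1 for Bmp10, 2 for Nppa and 5 for Myl7, all 5 after TGF-β. For Bmp10 the control siRNA libraries had 8 to 18 estimated counts (median 12), and those with siR-1 and siR-2 had a median of 0 and at most 16 and 20. The 1 library above the limit had siR-2 and all others were at or below it, so no difference by siRNA is read for Bmp10. Nppb exceeded it in 24 of 27 libraries, and the 3 others had siR-2. With the control siRNA its median was 0.774 CPM in unstimulated, 2.14 CPM in IL-17 and 0.359 CPM in TGF-β cells (n = 3 each). Myl4 was read in all 27, at 3.36 to 7.40 CPM with the control siRNA, 4.28 to 6.50 CPM with siR-1 and 2.42 to 4.89 CPM with siR-2. No comparison was made across these tables.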

How the data were processed

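Messenger RNA enriched from total RNA of 8 mouse hearts was sequenced. The authors aligned reads to GRCm38 with HISAT2 and quantified genes with StringTie, per the labels. The deposited heart table holds raw counts per gene, and the deposited fibroblast tables hold estimated counts, of which about 6 equal 1 read pair. Heart counts were tested in edgeR 4.0.16 (TMM, filterByExpr, robust quasi-likelihood F test, Benjamini-Hochberg), which kept 16675 genes, and alternatively in DESeq2 1.42.0. The fit was tested on simulated data. Correlations used log2(CPM + 0.1) over 8 hearts with exact permutation of pairings. Genes with an adjusted p up to 0.05 were called. Members and lists were chosen with earlier results of these data known. Genes named were the members, the 3 genes most alike to each member except Bmp10, and in each list the most abundant, the largest and the smallest in log2 fold change, called genes and those with a role described. A gene that this rule would name is not reported here. Each heart was taken as 1 mouse, and p-values measure the spread between these samples. Intervals and limits cover counting error only. The heart columns carry animal numbers that the labels do not give, so they were assigned to a genotype only. Positions came from GENCODE vM21, which holds 55141 of the identifiers. The authors' use of strand in counting is not given in the sources used here.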

Additional observations from a re-analysis of the deposited data

Results flagged for a closer look

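Chance places 1 in 20 groups of 4 this far apart, and 8 of 131 groups examined had a single heart that stood apart from the other 3 of its genotype. Among the members and the IAMP gene there were none. Tead1 was at 7.85 CPM in KO-C against 155 to 163 CPM in the other KO hearts, and the summed cardiac transcription factors, which include it, were at 1010 CPM in KO-C against 1196 to 1209 CPM. Smad5 was at 10.7 CPM in KO-D against 22.3 to 23.5 CPM. The ventricle-enriched genes summed to 16670 CPM in HET-D against 18440 to 18640 CPM in the other HET hearts. The BMP9 and BMP10 pathway summed to 574.5 CPM and the smooth muscle markers to 338.3 CPM in KO-B, the heart with the least Myl7, against 529 to 536 and 371 to 373 CPM. Gm18169 was at 1.09 CPM in HET-A against 1.22 to 1.24 CPM, and Myl1 at 19.4 CPM in KO-C against 16.0 to 16.5 CPM.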

How the results depend on the processing

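No paired analysis was possible because the heart columns carry no replicate number that the labels give. Of the log2 fold changes of Myl7, Myl4, Sln, Nppa and Nppb, 61 of 65 values under other settings stayed negative, and the 4 positive ones came from leaving out HET-C or KO-B. The settings refit the same hearts, and Myl7, Myl4, Sln and Nppa vary together. The count of negative values is thus not read as support for a difference between genotypes. edgeR's quasi-likelihood test called 0 genes each way under the other scalings, filters and the added fold threshold, whereas DESeq2 called 3 higher (Fyb, Clk1 and Plin4) and 2 lower (Heg1 and Bmp10, the latter chosen with this difference known, so that its call is no test), and leaving out 1 heart gave 0 to 1 in each direction (Fyb higher without KO-A, Gm8941 higher without KO-B, Mapt lower without HET-A and Gm7030 lower without KO-D). The count of 6 member pairs past an adjusted p of 0.05 by exact permutation kept within 5 to 6 in all 12 alternatives run, with Sln and Nppa lost without HET-C (adjusted p of 0.141). For the 3 relations of Myl7, Myl4 and Sln with the atrial list, r stayed between 0.82 and 0.96 under all 13 alternatives, while the number past the threshold varied. Scaling by library size alone left 0 (r of 0.82 to 0.84, adjusted p of 0.0546 by exact permutation), deviations from the genotype means left 0 (r of 0.89 to 0.91), and leaving out 1 heart left 0 to 3. Summing the CPM of the list kept these 3 past the threshold and added that of Nppa (r of 0.78, adjusted p of 0.0452 by exact permutation). The limit on Bmp10 ran from 6.33 to 13.4-fold when 1 heart was left out. With 7 hearts or with permutation within genotype fewer arrangements are possible, so a p is less able to pass.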
